A study of Salix viminalis with 12 samples.

Results

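The class III peroxidases of the *S. viminalis* root transcriptome were chosen by their annotation. Members were the contigs whose description begins with peroxidase or names a peroxidase superfamily protein, together with the contigs paired with the Arabidopsis gene AT5G67400, whose description does not name its enzyme family. The rule found 137 of the 64173 contigs that carry an Arabidopsis code (0.213%), and these belonged to 36 of 13764 Arabidopsis genes (0.262%). The rule reads only descriptions and codes, and no measured value. The members were nonetheless chosen with earlier results of these data known, and the paper discusses AT5G67400 by its code.

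Fine roots of cuttings from a single *S. viminalis* individual gave 12 libraries, 3 from each of 4 groups. Plants in control soil were kept temperate (CT) or cold acclimated (CC), and the same was done with plants in metal-polluted soil (MT when temperate, MC when cold acclimated). All groups share their genotype, and by design differ in soil and temperature. After 3 weeks of rooting, MT and MC plants were moved to soil spiked with Zn (500 ppm), Cu (175 ppm), Ni (30 ppm) and Cd (1.5 ppm), while CT and CC plants grew without these additions, and after 40 days the CC and MC plants were cold acclimated for 4 weeks. The growth protocol gives 23 °C by day and 20 °C by night for temperate conditions. For the cold it gives 7 °C and 5 °C. The treatment labels instead state 22 °C for the temperate groups (CT, MT) and 4 °C for the cold groups (CC, MC). The reads of all libraries were assembled together, and the table analysed here names the resulting contigs without any value per library. The depth of each library is therefore not known from it, no difference between CT, CC, MT and MC could be tested, and the numbers below describe which peroxidases the pooled root assembly holds. They are counts over 1 assembly, without replicates.

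Class III peroxidases are haem enzymes that plants secrete into the cell wall and the vacuole. They use hydrogen peroxide to oxidise phenolic compounds, which couples monolignols into lignin, links wall proteins such as extensins and takes part in the making of suberin, and they can also produce reactive oxygen species. In roots they are known for lignifying xylem vessels and the Casparian strip of the endodermis, and for loosening and stiffening the wall of growing root hairs. All roles of single genes given below are known from Arabidopsis, and not from willow. The enzyme numbers (PRX) are the usual names of the Arabidopsis genes, since the table lists a symbol for only 5 of the 36 genes.

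The annotation was first compared with the label. Of the 137 contigs, 128 were described as peroxidase superfamily proteins, and these belonged to 33 genes. A further 4 contigs of AT5G06720 (PA2) were described as peroxidase 2, 3 contigs of AT4G30170 as a peroxidase family protein, and 2 contigs of AT5G67400 (RHS19) as root hair specific 19. For AT3G01420 the description went against the symbols. Its 3 contigs were described as a peroxidase superfamily protein, but the symbols listed with them (DOX1, PADOX-1) are those of alpha-dioxygenase 1, a haem enzyme that oxygenates fatty acids and is not a class III peroxidase. The remaining 134 contigs of 35 genes carry codes of class III peroxidases. The rule also left out a class III peroxidase. AT5G22410 (RHS18), described as root hair specific 18, had 3 contigs in the table, 1 without a Trinity name and 2 of the first Trinity assembly, in separate Trinity components.

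The number of contigs per gene ranged from 1 to 23. AT1G05260 (RCI3, PRX3) had 23 contigs, the most of all members, and ranked 202 among the 13764 genes. RCI3 was named as a gene induced by cold, and its product is also among the peroxidases of the Casparian strip. AT5G05340 (PRX52), which takes part in the lignification of fibres, followed with 15 contigs and ranked 422. These 2 genes together held 38 contigs, or 27.7% of the family, and they were the only members with 10 or more contigs. The gene with the most contigs held 16.8% of the peroxidase contigs, beside 36.1% in ascorbate peroxidases, 19.2% in laccases and 23.7% in glutathione S-transferases, the families compared further below. Those families hold 6, 12 and 21 genes, beside 36 peroxidase genes. The share of the largest gene depends on the number of genes, so these shares do not compare how evenly contigs are spread.

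The next 4 genes had 7 contigs each. They were AT1G71695 (PRX12), AT2G41480 (PRX25, lignification), AT4G33420 (PRX47, xylem vessels) and AT5G66390 (PRX72, lignification). AT2G22420 (PRX17), also linked to lignified tissue, had 6 contigs. Together these 7 genes accounted for 72 of the 137 contigs (52.6%). Below them, AT1G14550, AT1G49570, AT5G06720 and AT5G15180 had 4 contigs each, 10 genes had 3 contigs, 4 genes had 2 contigs and 11 genes had a single contig.

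**Figure D1:**
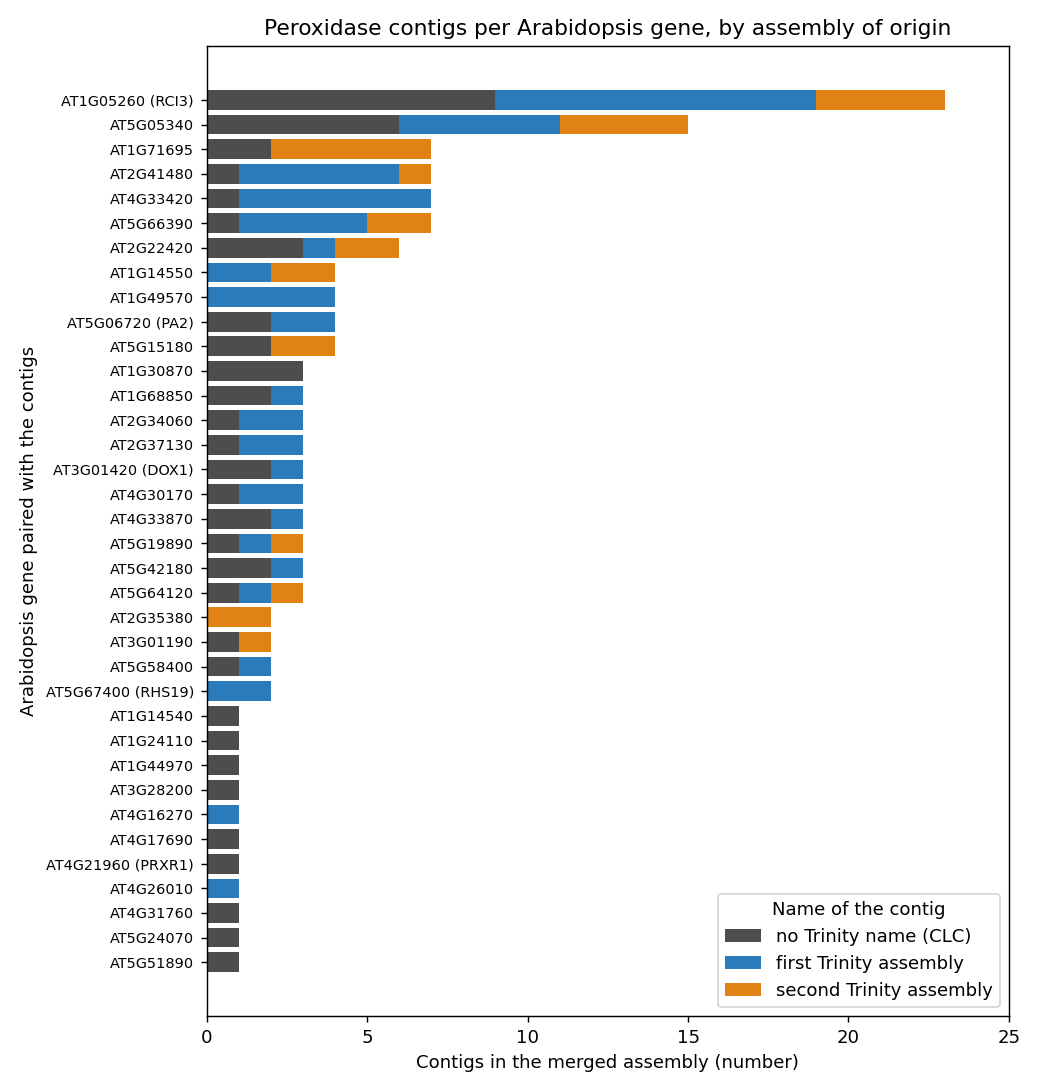
Number of contigs paired with each of the 36 Arabidopsis genes, with 1 bar per gene, coloured by the assembly that the contig name comes from. The bars of AT1G05260 (23 contigs) and AT5G05340 (15 contigs) stand above all others, which reach 7 at most, and 9 of the 11 genes with 1 contig have a CLC contig.

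The median was 3 contigs per peroxidase gene, with quartiles of 1 and 4, beside a median of 3 and quartiles of 2 and 5 over all genes with a code. More than 1 contig was found for 25 of the 36 genes, or 69.4%, with an exact (Clopper-Pearson) 95% interval of 51.9% to 83.7% that covers counting error only. The interval treats the 36 genes as independent draws, although they are all the members found in 1 assembly. Over all genes, the members included, this share was 77.7%. A share of 5.56% of the peroxidase genes had 10 or more contigs, beside 8.74% of all genes. No test of these differences was made.

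Members were then grouped by their roles in Arabidopsis. The lists hold 24 genes, of which 16 had at least 1 contig and 8 had none. The lists share genes, differ in size and were not tested against each other. The share of all Arabidopsis class III peroxidases with a contig was not computed. The matches of a list therefore have no such share beside them, and do not show that a role is present or absent. A missing code does not show that the willow gene is missing from the roots. Its transcripts may have been paired with the code of a related peroxidase, and the sequences that would show this were not used here.

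Of the genes listed for lignin and xylem, 7 of 8 were matched, by 46 contigs. Besides PRX52, PRX25, PRX47, PRX72 and PRX17, described above, AT5G64120 (PRX71) had 3 contigs and AT5G51890 (PRX66), linked to xylem vessels, had 1 contig. AT1G05250 (PRX2) had 0 contigs. PRX52 thus made up 15 of the 46 contigs, and the genes of the list ranged from 0 to 15 contigs.

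For the Casparian strip, the lignified ring that seals the endodermis, 4 of 5 genes were matched by 34 contigs. Most of these were the 23 contigs of AT1G05260 (PRX3). AT5G66390 (PRX72), which is also on the lignin list, had 7 contigs. AT5G42180 (PRX64), the peroxidase best known for lignifying the strip, had 3 contigs, 2 from CLC and 1 from the first Trinity assembly. AT1G44970 (PRX9) had 1 contig and AT4G11290 (PRX39) had 0.

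The list for root hairs holds 6 genes, 3 of them matched by 6 contigs in all, of which 3 contigs belong to a gene outside the members. AT5G67400 (RHS19, also known as PRX73), which helps to build the wall of growing root hairs, had 2 contigs, both of the first Trinity assembly and in different components. AT4G26010 (PRX44), which acts in the same process, had 1 contig, and AT5G22410 (RHS18), left out by the rule, had 3 contigs. AT1G05240 (PRX1), AT5G39580 (PRX62) and AT5G64100 (PRX69) had 0 contigs each. PRX62 and PRX69, which promote root hair growth at low temperature, are also on the list for cold, where AT1G05260 (RCI3) with its 23 contigs was the only gene of 3 with a match.

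On the list for the oxidative burst, 1 of 3 genes was matched. AT3G49110 (PRX33) and AT3G49120 (PRX34), the peroxidases known for the burst of hydrogen peroxide in the cell wall, had 0 contigs each, and AT1G14540 (PRX4), listed with them, had 1 contig. Among 4 genes listed for growth, AT5G06720 (PRX53) had 4 contigs and AT4G16270 (PRX40) had 1 contig. AT5G17820 (PRX57) and AT4G11290 (PRX39) had 0 contigs each.

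Neighbouring codes were not covered alike. The Arabidopsis codes AT1G05240, AT1G05250 and AT1G05260 follow each other, and all contigs with any of the 3 codes carried AT1G05260. The codes AT1G14540 and AT1G14550 also follow each other, and here both were found, with 1 and 4 contigs. AT3G49110 and AT3G49120, another pair of this kind, were both without a contig. The other 21 members are on no role list and held 55 contigs. They include AT5G58400 (PRX68), which the paper discusses by its code, as it does AT5G67400. AT5G58400 had 2 contigs, 1 from CLC and 1 from the first Trinity assembly. AT4G21960 (PRXR1) had 1 contig.

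Contigs of a gene need not be separate loci. They can also be isoforms, coding sequences of the same transcript, or products of more than 1 assembly of the same reads. Their names show only how the assembler grouped them. Trinity assigns transcripts that share sequence to a component, and within it to Trinity genes. The 83 Trinity contigs of the family lay in 52 Trinity genes and 44 components, counted separately in both Trinity assemblies. Of the 52 Trinity genes, 33 held 1 peroxidase contig and 19 held more than 1 (36.5%). With contigs of any gene counted, 20 of the 52 (38.5%) held more than 1 contig with a code. Over all Trinity genes with a code this share was 28.8%. The highest number in a Trinity gene was 6 contigs.

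The larger genes fell into different kinds. The 14 Trinity contigs of AT1G05260 were spread over 10 Trinity genes in 7 components, with no more than 3 contigs in any Trinity gene. The 9 Trinity contigs of AT5G05340 were spread over 6 Trinity genes in 6 components, with no more than 2 in any. AT4G33420 was the opposite case, since its 6 Trinity contigs all lay in 1 Trinity gene of the first assembly. AT2G41480 had 5 of its 6 Trinity contigs in 1 Trinity gene, and AT5G66390 had 4 of its 6 in 1 Trinity gene and the other 2 in a Trinity gene of the second assembly. AT1G71695 had 5 Trinity contigs, all of the second assembly and in 1 component, where they formed Trinity genes of 2 and 3 contigs. Thus AT1G05260 and AT5G05340, the members with the most contigs, also had the most Trinity genes. More contigs allow more Trinity genes, and other genes with as many contigs were not compared. These numbers add up both Trinity assemblies and do not count loci. The 6 Trinity contigs of AT4G33420 were grouped by Trinity as forms of a single gene.

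**Figure D2:**
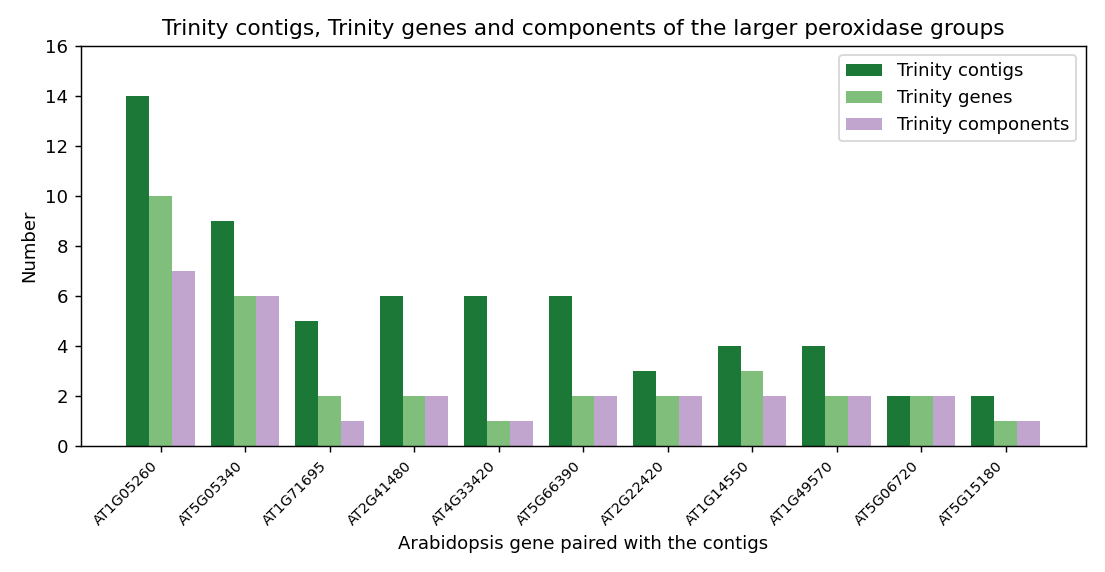
Number of Trinity contigs, Trinity genes and Trinity components (vertical axis) for the 11 genes with 4 or more contigs (horizontal axis, CLC contigs left out). AT1G05260 has 14 contigs in 10 Trinity genes and 7 components, whereas AT4G33420 has 6 contigs in 1 Trinity gene.

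The family differed in the origin of its contig names. Of the 137 contigs, 54 (39.4%) lacked a Trinity name and were assigned to CLC, 56 (40.9%) came from the first and 27 (19.7%) from the second Trinity assembly. Over all contigs with a code, the CLC share was 25.8%, and that of the first Trinity assembly 52.9%. A CLC share of 16.7% was found for ascorbate peroxidases (36 contigs of 6 genes), the haem peroxidases inside the cell that use ascorbate. It was 26.9% for laccases (78 contigs of 12 genes), copper enzymes that also oxidise monolignols, and 22.0% for glutathione S-transferases (118 contigs of 21 genes), which detoxify compounds by joining them to glutathione. The peroxidase share was thus the highest of the 4 families compared. These are shares of the names left after similar sequences had been collapsed, the difference was not tested, and contigs of the same gene are not independent.

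**Figure D3:**
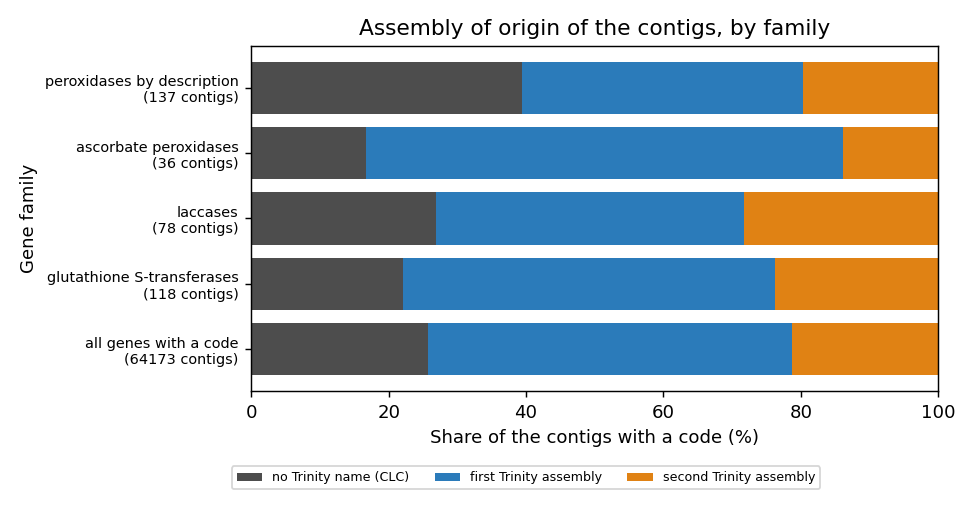
Share of contigs (%) by assembly of origin for the peroxidases found by description, 3 other families and all contigs with a code, with 1 stacked bar each. CLC names make up 39.4% of the peroxidase contigs and 25.8% of all contigs with a code.

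CLC contigs were found for 30 of the 36 genes, namely for 9 of the 11 genes with a single contig and 21 of the 25 others, while contigs of the first Trinity assembly were found for 22 genes and those of the second for 12. All 3 assemblies contributed to 7 genes (19.4%), beside 25.9% of all genes, and 2 assemblies to 14 genes. For 10 genes (27.8%), CLC was the only source, beside 14.9% of all genes. Of these, 9 had a single contig and thus a single source by construction, among them PRX4, PRX9, PRX66 and PRXR1, and the tenth, AT1G30870 (PRX7), had 3 contigs. The single contigs of PRX40 and PRX44 were of the first Trinity assembly. Of the single-contig genes, 9 of 11 (81.8%) thus had a CLC name, beside 52.2% of the 3064 single-contig genes of the whole table.

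In the other families, ascorbate peroxidases and laccases had medians of 5 contigs per gene, and glutathione S-transferases of 3. A single contig was found for 30.6% of the peroxidase genes, beside 16.7%, 8.33% and 19.0% of the genes in these families. With 6, 12 and 21 genes, these shares are imprecise, and their difference from the peroxidases was not tested.

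The 137 contigs were predicted on 135 parent transcripts, and none of these carried contigs of more than 1 peroxidase gene. A pair of coding sequences of the same gene was found on 2 transcripts, 1 of AT2G37130 and 1 of AT5G05340. A further transcript carried AT1G05260 together with AT4G13370, a protein of unknown function. In all, 3 of the 135 transcripts (2.22%) carried more than 1 contig with a code, beside 766 of 63361 (1.21%) over the whole table. The last number of a contig name orders the coding sequences of a transcript, and it was above 1 for 20 peroxidase contigs (14.6%), beside 11.8% of all contigs with a code.

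At the level of components, AT2G41480 (PRX25) and AT5G19890 (PRX59) were grouped together in both Trinity assemblies. In the first assembly, a component held 5 contigs of AT2G41480 and 1 of AT5G19890, and in the second a component held 1 contig of each. In both cases they were different Trinity genes. These were the only 2 of 44 components with more than 1 peroxidase gene. No component was shared by AT1G05260 and AT5G05340, nor by AT1G14540 and AT1G14550, of which the former had no Trinity contig.

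Another 13 components held a peroxidase together with a gene of another family, such as AT4G30170 with AT1G70410 and AT5G14740 (carbonic anhydrases) or AT2G34060 with AT5G37020 (auxin response factor 8). Both contigs of AT5G67400 and the Trinity contig of AT5G58400, the genes that the paper discusses, lay in components that also held a contig without a code. Such a contig was found in 6 of the 44 components with a peroxidase. Over the whole table, 64173 of 86843 contigs carry a code, and the share of all components with an uncoded contig was not computed. In all, 15 of the 44 components (34.1%) held more than 1 Arabidopsis gene, beside 12.6% of all 25858 components with a code. The former held a median of 2 contigs with a code and the latter a median of 1. Among components with 2 or more such contigs, the share was 55.6% (15 of 27) beside 31.2% (3264 of 10475), and the median was 3 contigs in both. The part of component size in this difference was not tested further. Among Trinity genes with a peroxidase contig, 2 of 52 (3.85%) held more than 1 Arabidopsis gene, beside 1100 of 31996 (3.44%) over all contigs with a code.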

How the data were processed

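Total RNA from roots was sequenced in 12 libraries. The authors trimmed the reads, assembled them with CLC Genomics Workbench and with Trinity, merged the results, used TransDecoder to predict coding sequences and cd-hit-est to collapse similar ones, and searched the *S. purpurea* transcriptome with BLAST. The deposited table holds 5 text columns (contig, parent transcript, Arabidopsis code, symbols, description) and 0 columns with a value per library, so its unit is names and no count, length or match score was deposited in it. The submitters' processing notes name edgeR (v. 3.28.1), whose comparisons were not used here. The assembly, the Trinity gene and the component (assembly and DN number) were read from the contig names, all other contigs were assigned to CLC, and the suffix of each code was removed to count genes. How the codes were assigned is not given in the table. Collapsing keeps 1 name per group of similar sequences, which affects contig numbers and the shares of the assemblies. The planned test of CC, MT and MC against CT could not be run.

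The members and lists were chosen with earlier results of these data known. Genes named are AT5G67400 and AT5G58400, the genes of the role lists and the members with the most contigs (the first 10 with ties); others were named after their values were seen. The software was matplotlib (v. 3.10.9) for the plots, and SciPy (v. 1.17.1), pandas (v. 2.3.3) and NumPy (v. 2.4.6) under Python (v. 3.11.15) for counting. The counting per gene was tested on simulated data. These held no component with several Trinity genes and no transcript with several contigs, so the counts of shared components and transcripts were not tested. No sequences are shown, because the sequences of the contigs were not used here.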

Additional observations from a re-analysis of the deposited data

How the results depend on the processing

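Over 9 other settings, 25 of 32 values stayed close to those given (counts and medians within 1.5 times, shares within the exact interval). Several of these could hardly move by construction. Each of the 36 genes had 1 gene model, the 137 contigs lay on 135 parent transcripts, and AT3G01420 and AT5G22410 are 1 gene each. The interval used for shares is also wide (51.9% to 83.7%). The median of 3 contigs per gene became 2 with the first Trinity assembly only, with the second only, and with Trinity genes counted. These medians lay exactly at the limit of 1.5 times and were taken as close. The other 7 values did not stay close, all 7 with the contigs of 1 assembly alone, which by construction leaves fewer of them. The 137 contigs became 56 with the first Trinity assembly only, 27 with the second and 54 with CLC only. The 36 genes became 22 and 12 with the first and the second Trinity assembly. With CLC only, the median fell from 3 to 1 contig per gene and the share of genes with more than 1 contig from 69.4% to 36.7%. Leaving out AT3G01420, an alternative added once the data had been seen, gave 134 contigs of 35 genes and a share of 68.6%. Adding AT5G22410 gave 140 contigs of 37 genes and 70.3%. No paired analysis was possible because libraries have no values of their own in the table. The fit with a replicate block was not run for the same reason.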

Other observations

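Outside the members, 72 contigs had a description that contains the word peroxidase. Besides the ascorbate peroxidases, they include 20 contigs of 5 genes described as glutathione peroxidases, which reduce lipid and other peroxides, with 8 contigs for AT4G11600 (GPX6) as the most. A further 12 contigs of 4 genes were described as related to vanadium-dependent haloperoxidases, 3 contigs of AT1G65980 as a thioredoxin-dependent peroxidase and 1 contig of AT5G11270 as overexpressor of cationic peroxidase 3.

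A Trinity gene of the first assembly held 1 contig of AT1G05260 (RCI3) together with 2 contigs of AT1G05270 and 1 contig of AT5G59550. The codes AT1G05260 and AT1G05270 follow each other in Arabidopsis, and AT1G05270, described as a TraB family protein, had 20 contigs in the whole table. Whether the willow genes are neighbours was not tested.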
